A study of Mus musculus with 8 samples.

Results

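The genes described here are 35 metallothionein, glutathione and oxidative defence genes of mouse pancreatic islets, chosen by name from the 22632 genes of an RNA-seq table. All 35 were present in the table. They were grouped by role into metallothioneins, superoxide dismutases and catalase, glutathione peroxidases, glutathione synthesis and recycling, peroxiredoxins with sulfiredoxin, the thioredoxin system, and NRF2 with its inhibitor and targets. The study profiled islets of C57BL/6 mice in 8 libraries, 2 from each of 4 groups. The groups were Tcf7 -/- at 20 weeks of age on a high-fat diet with 45% fat, Tcf7 +/+ littermates of the same age and diet, Tcf7 -/- at 8 weeks on a low-fat diet with 10% fat, and Tcf7 +/+ littermates of that age and diet. Age and diet changed together and cannot be told apart. For the younger animals the labels name a low-fat diet in one field and ordinary chow in another. Tcf7 encodes TCF-1, a transcription factor of the Wnt pathway. The sources used here do not say if the 2 libraries of each group stem from different animals or from pooled islets, so p-values measure the spread between these libraries, which may be technical.

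Metallothioneins are small cysteine-rich proteins that bind zinc and copper, and their genes are switched on by metal ions, glucocorticoids and oxidants. Superoxide dismutases turn superoxide into hydrogen peroxide, which catalase, glutathione peroxidases and peroxiredoxins then remove. Glutathione and thioredoxin supply the electrons for this work, and the factor NRF2, held down by KEAP1, switches on many of the genes involved. Rodent beta cells are known for low catalase and low glutathione peroxidase activity.

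Values are RPM, reads scaled to the total of the library. Library totals were 58.7 to 191 M reads, so 1 read was worth 0.00523 to 0.0170 RPM, and the listed genes took 55.7% to 61.2% of the reads at 20 weeks against 41.6% to 51.0% at 8 weeks. Beta cell markers were abundant in each library (summed level of 5 genes, 35127 to 54985 RPM at 20 weeks and 46850 to 54051 RPM at 8 weeks). Tcf7 was not lower in the knockout-labelled libraries: it had 4.56 and 2.56 RPM in Tcf7 -/- and 1.58 and 0.991 RPM in Tcf7 +/+ libraries at 20 weeks, and 0.512 and 0.519 RPM in Tcf7 -/- and 0.277 and 0.381 RPM in Tcf7 +/+ libraries at 8 weeks. Which exons were removed is unknown from the sources used here, so Tcf7 did not check the labels, and the groups are called knockout-labelled below.

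Levels of different genes were set side by side per kilobase, with the length of the annotated transcript that has the longest coding sequence. On this length, the highest mean levels over the 8 libraries were those of Mt1 at 76.0 and Txnip at 69.6 RPM per kb. Sod1 followed at 38.7, Mt2 at 38.0, Gpx3 at 23.96 and Prdx6 at 21.8 RPM per kb. Catalase stood at 1.81 RPM per kb and the haem oxygenase Hmox1 at 1.14 RPM per kb. The order depends on the length used. With all annotated exons, Mt1 has 1246 bases instead of 633, Sod1 3970 instead of 641 and Txnip 3123 instead of 2827. Mt1 and Sod1 would then stand lower against Txnip. At the low end, 4 genes did not reach 1 RPM in 2 libraries and were not tested: the brain-type metallothionein Mt3, the extracellular superoxide dismutase Sod3, and the endoplasmic reticulum peroxidases Gpx7 and Gpx8. Mt3 had 0.0341 to 0.296 RPM at 20 weeks and 0.125 to 0.313 RPM at 8 weeks, and its lowest value was 2 reads. Gpx7 spanned 0.360 to 0.503 RPM at 20 weeks and 0.418 to 0.599 RPM at 8 weeks, and Gpx8 0.187 to 0.367 RPM at 20 weeks and 0.259 to 0.604 RPM at 8 weeks. Sod3 had 0.254 to 0.528 RPM at 20 weeks and 0.120 to 0.262 RPM at 8 weeks. All of these low ranges overlapped between the ages.

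**Figure D1:**
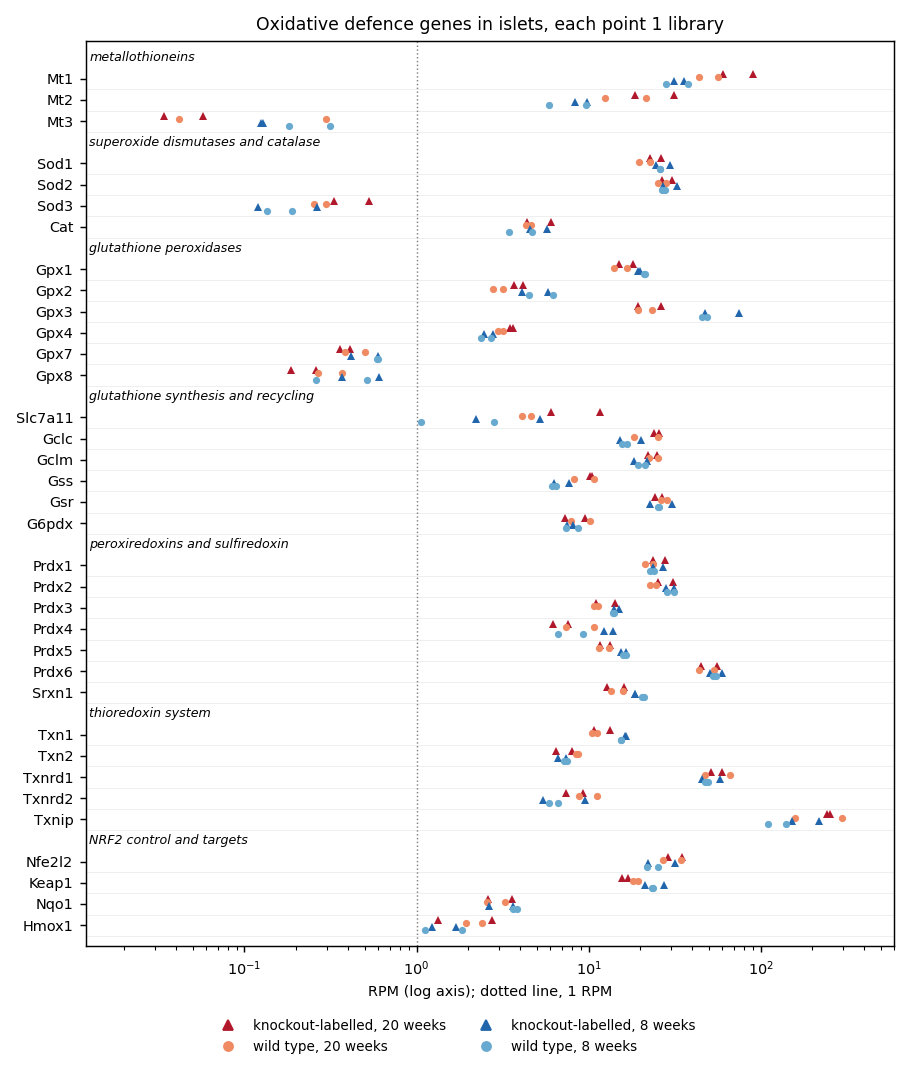
RPM of each of the 35 genes on a log axis, grouped by role, with 1 point per library (triangles, knockout-labelled; circles, wild type; red shades, 20 weeks on high fat; blue shades, 8 weeks on low fat). Mt1 and Mt2 lie further right at 20 weeks, Gpx3 lies further left at 20 weeks, and Mt3, Sod3, Gpx7 and Gpx8 lie below 1 RPM.

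The first comparison asked how islets from 20 weeks on high fat differed from islets at 8 weeks on low fat, averaged over both genotypes. Both abundant metallothioneins were higher at 20 weeks, Mt2 by 2.27-fold and Mt1 by 1.81-fold, while the secreted glutathione peroxidase Gpx3 fell to 0.423 of its 8-week level. In all, 11 of the 31 tested genes were called at an adjusted p under 0.05 (limma on log2(RPM + 1), Benjamini-Hochberg over 13347 genes). Of these, 6 were higher (Mt1, Mt2, Slc7a11, Gclc, Gss and Txnip) and 5 were lower (Gpx2, Gpx3, Srxn1, Txn1 and Keap1). Across all genes tested 31.2% were called higher and 6.05% were called lower. The median log2 difference was 0.03 over the 31 genes and 0.17 over all genes tested, so most genes shifted upwards at 20 weeks on this scale. Relative to that shift, the log2 differences were 1.01 for Mt2, 0.69 for Mt1, 0.83 for Slc7a11, 0.27 for Gclc and -1.41 for Gpx3. Fold changes are on the log2(RPM + 1) scale, with 4 libraries at each age, and understate the change of low genes.

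**Figure D2:**
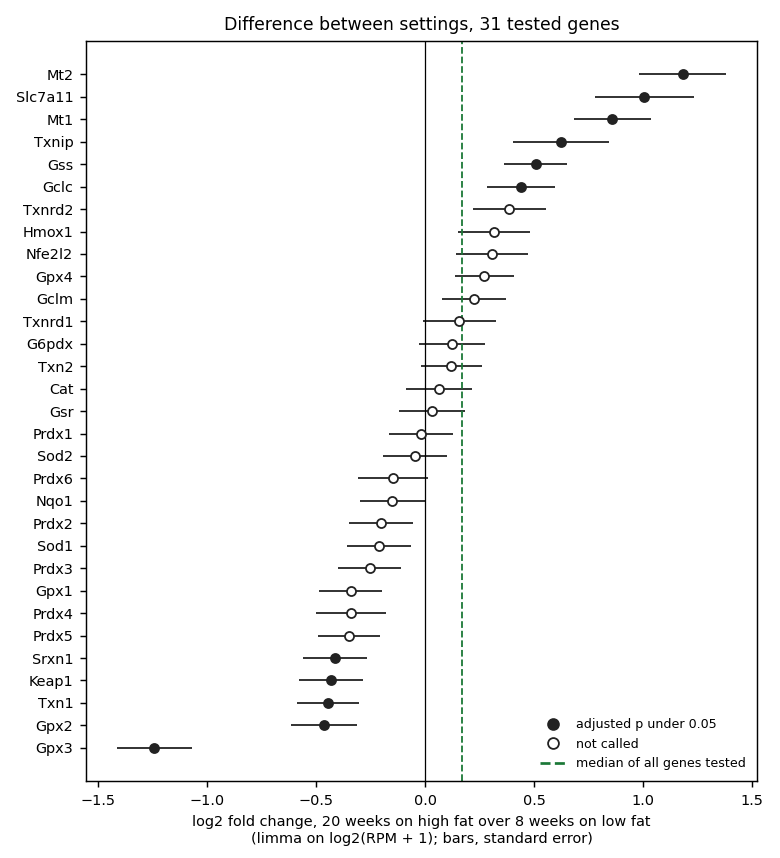
log2 fold change of the 31 tested genes, 20 weeks on high fat over 8 weeks on low fat, with its standard error as a bar; filled points had an adjusted p under 0.05 and the dashed line is the median of all genes tested, 0.17. Mt2, Slc7a11 and Mt1 stand at the high end and Gpx3 at the low end.

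Both tested metallothioneins were called higher. Mt1 had 60.7 and 90.4 RPM in knockout-labelled and 43.7 and 56.9 RPM in wild-type libraries at 20 weeks, against 31.4 and 35.9 RPM in knockout-labelled and 28.3 and 37.7 RPM in wild-type libraries at 8 weeks. Each 20-week library was above each 8-week library. The log2 fold change of Mt1 was 0.86 ± 0.18 (SE), with a limma adjusted p of 9.1e-04. Mt2 had 18.7 and 31.6 RPM in knockout-labelled and 12.4 and 21.7 RPM in wild-type libraries at 20 weeks, against 8.35 and 9.76 RPM in knockout-labelled and 5.88 and 9.69 RPM in wild-type libraries at 8 weeks. Here too the ages did not overlap, and the log2 fold change was 1.18 ± 0.20 (limma adjusted p 1.7e-04). Within a library the ratio of Mt1 to Mt2 RPM, which no scaling changes, was 2.63 to 3.51 at 20 weeks and 3.68 to 4.81 at 8 weeks. In the annotation (GENCODE M21) the transcript Gm45774 overlaps Mt2 exons on the other strand, and without strand in the counts its reads cannot be told apart from those of Mt2.

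Mt1 and Mt2 are neighbours on chromosome 8, and the 250 bases before each start are shown because the pair moved together. The sequences are from RefSeq (GRCm38.p6, plus strand, chr8:94178839-94179088 for Mt1 and chr8:94172368-94172617 for Mt2), with capitals marking matches on either strand to the metal response element core, searched as TGCACNC or TGCGCNC, and to the antioxidant response element core, searched as TGACNNNGC.
Mt1 upstream: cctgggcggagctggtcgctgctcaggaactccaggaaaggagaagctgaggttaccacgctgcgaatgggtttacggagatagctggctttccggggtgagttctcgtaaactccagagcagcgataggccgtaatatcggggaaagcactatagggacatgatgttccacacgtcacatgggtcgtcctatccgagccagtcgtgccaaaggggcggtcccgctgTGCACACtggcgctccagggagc
Mt2 upstream: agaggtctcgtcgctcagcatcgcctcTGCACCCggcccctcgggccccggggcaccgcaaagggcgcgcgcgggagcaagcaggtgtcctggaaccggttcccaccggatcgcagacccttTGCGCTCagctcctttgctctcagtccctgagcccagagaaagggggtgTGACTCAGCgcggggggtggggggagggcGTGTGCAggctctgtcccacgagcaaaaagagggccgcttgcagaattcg
Mt2 held 3 metal element matches and 1 antioxidant element match, with no overlap between them, and Mt1 held 1 metal element match. Over the 300 bases that also take in the first transcribed bases, Mt2 held 4 metal element matches and Mt1 held 3. The counts hold for the annotated start used for each gene, and a start further downstream would move the window and its counts. The printed Mt1 bases may thus leave out part of its core promoter. Bases beyond these windows were not searched, so the counts do not compare the whole promoters of both genes. Of 32851 RefSeq windows of 250 bases, 21.4% held a metal element match, 1.26% held at least 3, and 10.2% held an antioxidant element match. Over the 300-base windows, 1.97% held at least 3 metal element matches. Of the 35 genes, 30 were found in the promoter table by symbol, 9 of them with a metal element match and 7 with an antioxidant element match in the 250 bases. These 30 genes had 35 windows, and a gene counted if any of its windows matched. Such counts of genes are not on the same footing as the shares of windows above. A match is a description of the letters and not a measured binding site.

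Of 4 tested glutathione peroxidases, Gpx2 and Gpx3 were called lower and none was called higher, against 6.05% lower and 31.2% higher over all genes tested. Their log2 differences ranged from -1.24 to 0.27, with a median of -0.40. Gpx3 encodes the secreted peroxidase of extracellular fluid and had 19.4 and 26.2 RPM in knockout-labelled and 23.3 and 19.4 RPM in wild-type libraries at 20 weeks. Its 8-week values were 47.8 and 75.1 RPM in knockout-labelled and 45.5 and 48.9 RPM in wild-type libraries. The ages lay far apart without overlap, and the log2 fold change was -1.24 ± 0.17 (limma adjusted p 1.9e-05). Gpx2, the gastrointestinal-type peroxidase, had 3.69 and 4.16 RPM in knockout-labelled and 2.78 and 3.17 RPM in wild-type libraries at 20 weeks, against 5.80 and 4.12 RPM in knockout-labelled and 6.19 and 4.50 RPM in wild-type libraries at 8 weeks. The lowest 8-week library lay just under the highest 20-week library, and the log2 fold change was -0.46 ± 0.15 (limma adjusted p 0.022). Gpx2 has a near-identical pseudogene copy, Gpx2-ps1, in the annotation, so its reads may be split. The cytosolic Gpx1 had 14.0 to 18.1 RPM at 20 weeks and 19.4 to 21.3 RPM at 8 weeks, and its log2 difference, -0.34 ± 0.14, was not called (limma adjusted p 0.073) although the ages did not overlap. Gpx4, which reduces lipid peroxides in membranes, had 2.98 to 3.63 RPM at 20 weeks and 2.37 to 2.79 RPM at 8 weeks, also without overlap, a log2 difference of 0.27 ± 0.13 that was not called (limma adjusted p 0.12).

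Markers of alpha cells moved with Gpx3. Gcg, which encodes glucagon, had 1542 to 2859 RPM at 20 weeks and 3363 to 5312 RPM at 8 weeks, without overlap, and was called lower (log2 fold change -0.99 ± 0.34, limma adjusted p 0.030). Irx2, a factor of alpha cells, had 1.92 to 4.08 RPM at 20 weeks and 3.74 to 7.79 RPM at 8 weeks and was also called lower (-0.68 ± 0.18, limma adjusted p 0.0066). The second knockout-labelled library at 8 weeks had the highest Gpx3, Gcg and Irx2. For each 1000 RPM of Gcg, Gpx3 stood at 8.14 to 12.6 RPM at 20 weeks and 12.4 to 14.1 RPM at 8 weeks. These ranges overlapped only through the second wild-type library at 20 weeks (12.6) and the second wild-type library at 8 weeks (12.4). Of the 7 fibroblast and stellate markers, 4 were tested, and all 4 had log2 differences below 0. At 20 weeks 3 were called lower, against 6.05% over all genes tested. The summed level of the 7 markers was 4.17 to 7.83 RPM at 20 weeks and 6.83 to 26.8 RPM at 8 weeks. In bulk tissue, fewer cells of a type and less RNA per cell cannot be told apart, and the part of these markers in the results for Gpx3 and the other genes was not tested.

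Among the genes of glutathione synthesis and recycling, 3 of 6 were called higher and none lower, against 31.2% higher and 6.05% lower over all genes tested. Their median log2 difference was 0.33, and the median of all genes tested was 0.17. Slc7a11 encodes the cystine transporter xCT, which brings in the building block for glutathione. It had 6.06 and 11.7 RPM in knockout-labelled and 4.09 and 4.62 RPM in wild-type libraries at 20 weeks, against 5.25 and 2.21 RPM in knockout-labelled and 1.06 and 2.83 RPM in wild-type libraries at 8 weeks. The first knockout-labelled library at 8 weeks lay within the 20-week range, so the ages overlapped through that library. The log2 fold change was 1.005 ± 0.228 (limma adjusted p 0.0021), and it was smaller and not called with median-of-ratios scaling (0.84), with scaling to the listed genes (0.70) and in edgeR (0.92), and not called with no filter (1.005).

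Gclc, the catalytic subunit of glutamate-cysteine ligase, had 24.1 and 25.6 RPM in knockout-labelled and 25.4 and 18.5 RPM in wild-type libraries at 20 weeks, against 15.2 and 20.2 RPM in knockout-labelled and 15.6 and 16.8 RPM in wild-type libraries at 8 weeks. The log2 fold change was 0.44 ± 0.16 (limma adjusted p 0.034), and 1 wild-type library at 20 weeks lay below 1 knockout-labelled library at 8 weeks. Gss, glutathione synthetase, had 10.1 and 10.5 RPM in knockout-labelled and 10.7 and 8.24 RPM in wild-type libraries at 20 weeks, against 6.32 and 7.72 RPM in knockout-labelled and 6.14 and 6.44 RPM in wild-type libraries at 8 weeks. The ages did not overlap for Gss, and the log2 fold change was 0.51 ± 0.14 (limma adjusted p 0.010). Gss shares exonic bases with Acss2 and other genes on the other strand. The modifier subunit Gclm had 22.2 to 25.3 RPM at 20 weeks and 18.3 to 21.8 RPM at 8 weeks, a log2 difference of 0.22 ± 0.15 that was not called. Gsr, glutathione reductase, had 24.5 to 28.5 RPM at 20 weeks and 22.7 to 30.5 RPM at 8 weeks, and G6pdx, which makes the NADPH that the reductase uses, had 7.27 to 10.2 RPM at 20 weeks and 7.36 to 8.67 RPM at 8 weeks. Neither was called, with log2 differences of 0.03 ± 0.15 for Gsr and 0.12 ± 0.15 for G6pdx.

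**Figure D3:**
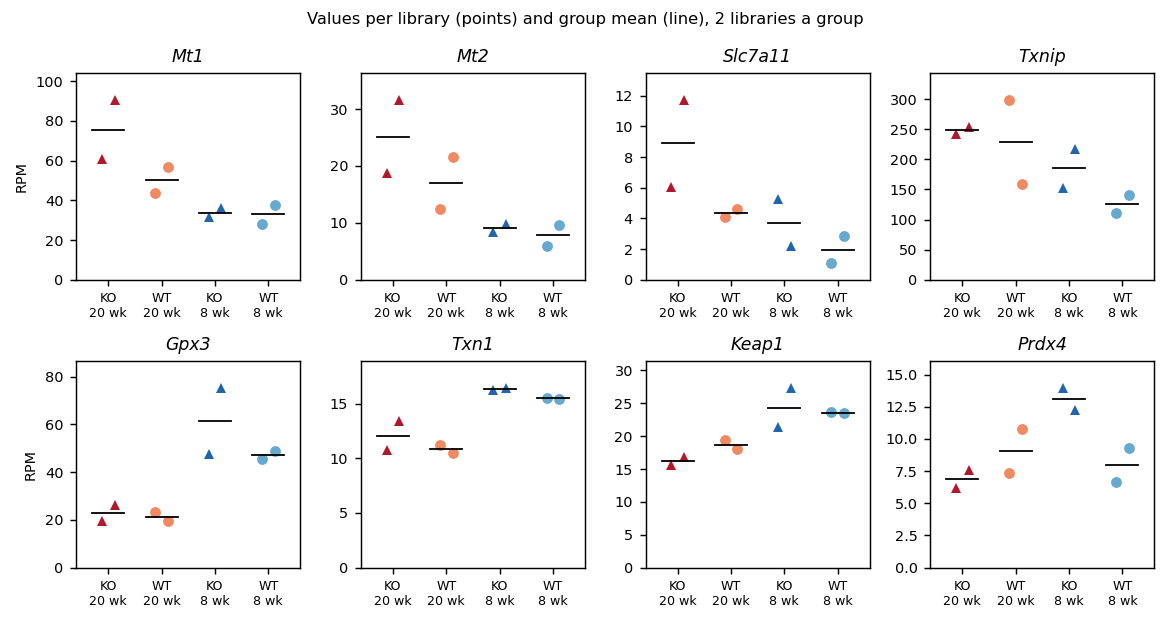
RPM per library (points) and group mean (line) for 8 genes, with KO the knockout-labelled and WT the wild-type libraries, 2 libraries a group. Mt1, Mt2, Slc7a11 and Txnip have higher means at 20 weeks on high fat, Gpx3, Txn1 and Keap1 have lower ones, and Prdx4 is highest in the knockout-labelled libraries at 8 weeks on low fat.

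The thioredoxin system split. Txnip, which binds and inhibits thioredoxin and is switched on by glucose in beta cells, had 242 and 254 RPM in knockout-labelled and 298 and 159 RPM in wild-type libraries at 20 weeks, against 153 and 218 RPM in knockout-labelled and 110 and 140 RPM in wild-type libraries at 8 weeks. The second wild-type library at 20 weeks and the second knockout-labelled library at 8 weeks made the ages overlap. The log2 fold change of Txnip was 0.62 ± 0.22 (limma adjusted p 0.033). Txn1, the cytosolic thioredoxin, had 10.7 and 13.4 RPM in knockout-labelled and 11.2 and 10.5 RPM in wild-type libraries at 20 weeks, against 16.3 and 16.4 RPM in knockout-labelled and 15.5 and 15.4 RPM in wild-type libraries at 8 weeks. The 8-week libraries were tightly grouped above each 20-week library, with a log2 fold change of -0.45 ± 0.14 (limma adjusted p 0.020). A near-identical pseudogene, Txn-ps1, could take up some Txn1 reads. Within a library, the ratio of Txnip to Txn1 RPM was 15.1 to 26.7 at 20 weeks and 7.10 to 13.3 at 8 weeks, a separation that does not depend on scaling. The other 3 genes of the system were not called, and their ages overlapped. The mitochondrial thioredoxin Txn2 had 6.47 to 8.70 RPM at 20 weeks and 6.64 to 7.53 RPM at 8 weeks (log2 difference 0.12 ± 0.14). Txnrd1, the cytosolic thioredoxin reductase, had 47.7 to 66.7 RPM at 20 weeks and 46.0 to 58.4 RPM at 8 weeks (0.16 ± 0.17). Txnrd2, its mitochondrial counterpart, had 7.39 to 11.2 RPM at 20 weeks and 5.45 to 9.51 RPM at 8 weeks (0.39 ± 0.17).

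No peroxiredoxin was called with the deposited scaling, the filter of 1 RPM, no covariate and all 8 libraries. Prdx5 was called lower with no filter and without the first or the second knockout-labelled library at 8 weeks, and Prdx4 with the acinar mean as a covariate and without the second of those libraries. These enzymes reduce peroxides, mostly with electrons from thioredoxin, and all 6 had log2 differences below 0, between -0.35 for Prdx5 and -0.02 for Prdx1. Prdx5, found in mitochondria and peroxisomes, had 11.6 to 13.4 RPM at 20 weeks and 15.5 to 16.6 RPM at 8 weeks, and its log2 difference of -0.35 ± 0.14 fell just short of the threshold (limma adjusted p 0.060). The mitochondrial Prdx3 had 10.8 to 14.2 RPM at 20 weeks and 14.0 to 15.0 RPM at 8 weeks. The cytosolic Prdx1 had 21.2 to 27.9 RPM at 20 weeks and 22.9 to 27.1 RPM at 8 weeks. Prdx2, also cytosolic, had 22.9 to 30.9 RPM at 20 weeks and 28.1 to 31.4 RPM at 8 weeks, and Prdx6, which uses glutathione, had 43.9 to 55.5 RPM at 20 weeks and 50.8 to 60.1 RPM at 8 weeks. For Prdx1, Prdx2, Prdx3 and Prdx6 the ages overlapped. Srxn1, sulfiredoxin, which restores overoxidised peroxiredoxins, was called lower. It had 12.8 and 16.0 RPM in knockout-labelled and 15.9 and 13.6 RPM in wild-type libraries at 20 weeks, against 18.7 and 18.5 RPM in knockout-labelled and 20.4 and 21.1 RPM in wild-type libraries at 8 weeks. The ages did not overlap, and the log2 fold change was -0.41 ± 0.15 (limma adjusted p 0.032).

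Of the superoxide dismutases and catalase, none of the 3 tested was called. The cytosolic Sod1 had 19.7 to 26.2 RPM at 20 weeks and 24.8 to 29.8 RPM at 8 weeks, with a log2 difference of -0.21 ± 0.15. The mitochondrial Sod2 had 25.5 to 30.5 RPM at 20 weeks and 26.9 to 32.7 RPM at 8 weeks, with a log2 difference of -0.05 ± 0.15. Cat had 4.31 to 6.05 RPM at 20 weeks and 3.46 to 5.75 RPM at 8 weeks, with a log2 difference of 0.06 ± 0.15. Each of these ranges overlapped between the ages.

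NRF2 itself, encoded by Nfe2l2, was not called, whereas its inhibitor Keap1 was lower at 20 weeks. Keap1 had 15.6 and 16.9 RPM in knockout-labelled and 19.4 and 18.0 RPM in wild-type libraries at 20 weeks, against 21.3 and 27.3 RPM in knockout-labelled and 23.6 and 23.5 RPM in wild-type libraries at 8 weeks. No 20-week library reached the 8-week range, and the log2 fold change was -0.43 ± 0.15 (limma adjusted p 0.027). Nfe2l2 had 27.0 to 35.1 RPM at 20 weeks and 21.8 to 31.9 RPM at 8 weeks, a log2 difference of 0.31 ± 0.16. The ratio of Nfe2l2 to Keap1 RPM within a library was 1.5 to 2.08 at 20 weeks and 0.922 to 1.17 at 8 weeks. The NRF2 targets Nqo1, a quinone reductase, and Hmox1 were not called: Nqo1 had 2.59 to 3.57 RPM at 20 weeks and 2.65 to 3.84 RPM at 8 weeks, and Hmox1 had 1.33 to 2.75 RPM at 20 weeks and 1.13 to 1.85 RPM at 8 weeks. Their log2 differences were -0.15 for Nqo1 and 0.32 for Hmox1. With median-of-ratios scaling and with scaling to the listed genes, but not in edgeR, Nqo1 was called lower. Besides Mt2 and Gss, Gclm, G6pdx, Prdx2, Prdx5, Txnrd2, Txnip and Keap1 share annotated exonic bases with a gene on the other strand, and besides Gpx2 and Txn1, Sod1, Gpx4, Prdx1 and Prdx2 have near-identical copies, so their values are less certain.

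The calls differed in how far they held. Mt1, Mt2 and Gpx3 were called in the same direction under each of 16 other ways of processing, with log2 fold changes between 0.48 and 0.9997 for Mt1, 0.82 and 1.37 for Mt2, and -1.62 and -1.08 for Gpx3. Under 3 other scalings (median-of-ratios, the listed genes, and TMM in edgeR), which set the median of all genes near or below 0, Mt1 and Mt2 remained higher and Gpx2, Gpx3, Keap1, Srxn1 and Txn1 remained lower. The same scalings turned the balance of the list: 5 genes were higher and 16 lower with median-of-ratios scaling (all genes, 30.4% and 28.2%), 2 higher and 16 lower with scaling to the listed genes (19.0% and 38.9%), and 5 higher and 15 lower in edgeR (28.8% and 29.9%). The genes that became lower under all 3 were Prdx1 to Prdx6, Sod1, Sod2, Gsr and Gpx1. Sod1, Sod2, Gsr, Prdx1, Prdx2, Prdx3 and Prdx6 were called only under these scalings.

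Leaving out single libraries also made and ended calls. Without the second knockout-labelled library at 8 weeks, Nfe2l2 and Txnrd2 were also called higher and Prdx4, Prdx5 and Gpx1 also lower. Over all genes tested, more were called higher in that fit too, with a median log2 difference of 0.27 against 0.17 with all 8 libraries. Prdx5 and Gpx1 were also called lower without the first knockout-labelled library at 8 weeks, and Hmox1 was called higher without the first one at 20 weeks. Slc7a11 was called in each of the 8 fits that left out a library (0.76 to 1.25). Gss was not called without the first wild-type library at 8 weeks (0.49) or at 20 weeks (0.42), nor with scaling to the listed genes (0.16). Gpx2 was not called with no filter (-0.46), nor without the first knockout-labelled library at 8 weeks (-0.36) or 20 weeks (-0.43) or the first wild-type library at 8 weeks (-0.37) or 20 weeks (-0.43). The calls of Txn1 (-0.52 to -0.37) and Srxn1 (-0.49 to -0.34) were each lost without either wild-type library of either age and without the first knockout-labelled library at 20 weeks. Of the left-out fits, Keap1 (-0.52 to -0.35) was called only in those without the first or the second knockout-labelled library at 8 weeks. With the acinar mean as a covariate, neither Srxn1 (-0.40) nor Keap1 (-0.40) was called. Gclc (0.33 to 0.55) kept its call only without the first or the second knockout-labelled library at 8 weeks or the second wild-type library at 20 weeks. It was near 0 with scaling to the listed genes (0.07) and not called with no filter (0.44). Txnip (0.39 to 0.85) kept its call only without the second knockout-labelled or second wild-type library at 8 weeks or the second wild-type library at 20 weeks, and was not called with scaling to the listed genes (0.23) or with no filter (0.62). For the genes called with all 8 libraries, signs did not change in any of these fits. Among the 20 genes not called, at most 2 changed sign in a fit that left out a library. With the acinar mean as a covariate, 1 of those 20 changed sign.

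**Figure D4:**
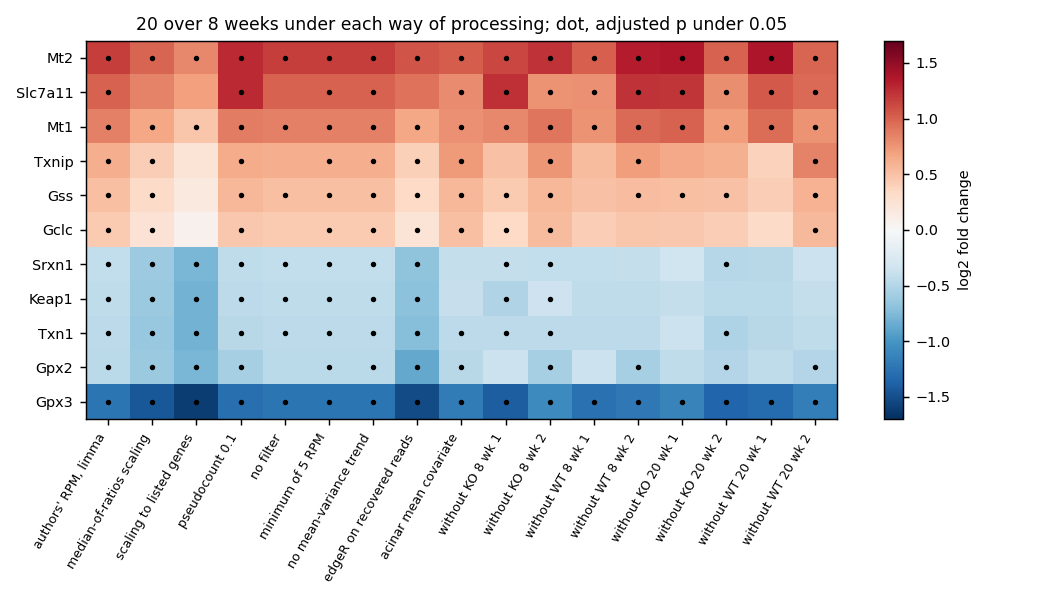
Colour gives the log2 fold change, 20 weeks on high fat over 8 weeks on low fat, for the 11 called genes (rows) under the deposited scaling and 16 alternatives (columns); a dot marks an adjusted p under 0.05, KO stands for knockout-labelled and WT for wild type. Mt2, Mt1 and Gpx3 carry a dot in each column.

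Counting only genes whose 4 libraries at 20 weeks did not overlap the 4 at 8 weeks, 5 of 31 were higher (Mt1, Mt2, Gpx4, Gclm and Gss), against 30.4% of all genes tested, and 6 were lower (Gpx1, Gpx3, Prdx5, Srxn1, Txn1 and Keap1), against 8.19%. Differences between the ages also moved with transcript length. Across the 12910 genes with a length, the rank correlation of length with the log2 difference was 0.27, a description over genes that share the same 8 libraries. The median log2 difference was -0.07 for genes up to 1000 bases and 0.33 for genes over 4000 bases. Among the called genes, the median length was 2395 bases for those higher and 1594 bases for those lower. The lengths were mixed on both sides: the higher Mt1 and Mt2 have 633 and 388 bases, and the lower Keap1 and Srxn1 have 3614 and 2812 bases. The part of length in the calls was not tested.

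**Figure D5:**
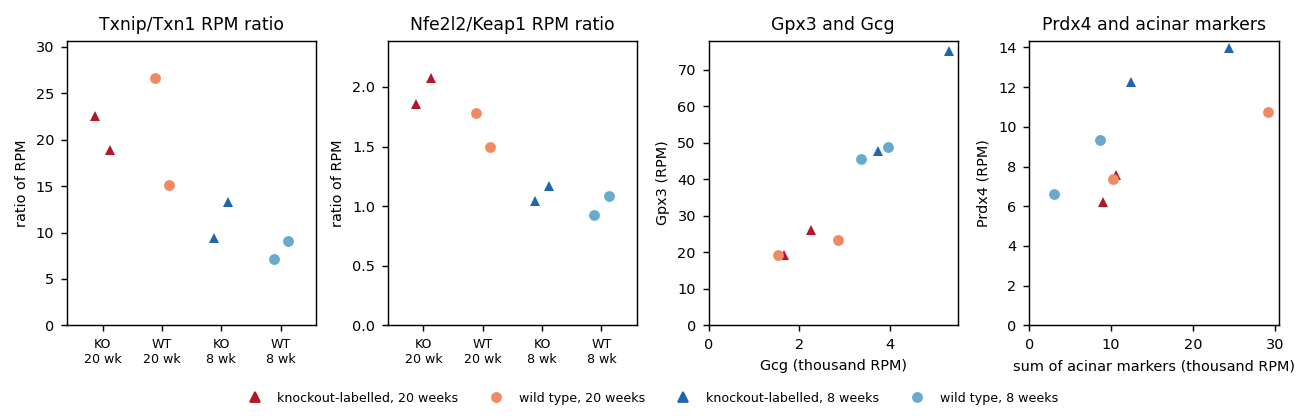
The left panels give the ratio of Txnip to Txn1 and of Nfe2l2 to Keap1 RPM in each library (KO, knockout-labelled; WT, wild type); the right panels plot Gpx3 against Gcg and Prdx4 against the summed acinar markers, in RPM. Both ratios are higher in each library at 20 weeks than in any at 8 weeks, and the library with the highest Gpx3 has the highest Gcg.

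The second comparison set knockout-labelled against wild-type islets at each age. No gene of the list was called at either age, on average over both, or in the interaction of genotype with age and diet. Calls were rare across all genes too: 0.0300% were higher and 0.0150% lower at 20 weeks, 0.0150% higher and 0.195% lower at 8 weeks, 0.0150% higher and 0.0899% lower on average, and 0.0599% higher and 0.00749% lower in the interaction. At an unadjusted p under 0.05, limma gave 2 genes of the list at 20 weeks and 1 each at 8 weeks, on average and in the interaction. edgeR also called none, with 2, 3, 4 and 1 at an unadjusted p under 0.05 in the same order. The 95% interval of the log2 difference lay within 1 of 0 for 28 of 31 genes at 20 weeks, with Slc7a11, Mt1 and Mt2 the exceptions, and for 28 of 31 at 8 weeks, with Slc7a11, Prdx4 and Txnip the exceptions.

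The smallest p-values at 20 weeks belonged to Slc7a11, Mt1 and Mt2, all with higher means in knockout-labelled islets. The log2 difference of Slc7a11 was 0.82 ± 0.32 (limma adjusted p 0.87), that of Mt1 0.56 ± 0.25 and that of Mt2 0.54 ± 0.28 (limma adjusted p 0.9997 each). The 2 knockout-labelled libraries lay above both wild-type libraries for Slc7a11 and Mt1 but not for Mt2. Without the second knockout-labelled library at 20 weeks, which was the highest for all 3 genes, the log2 differences were 0.40 for Slc7a11, 0.28 for Mt1 and 0.17 for Mt2. Slc7a11 was called at 20 weeks only when the 4 libraries of that age were fitted alone (0.82, limma adjusted p 0.0025).

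At 8 weeks the smallest p-values were those of Prdx4 (0.67 ± 0.23, limma adjusted p 0.54), Slc7a11 (0.67 ± 0.32) and Txnip (0.55 ± 0.31), the last 2 with a limma adjusted p of 1. Without the first knockout-labelled library at 8 weeks the difference of Slc7a11 was 0.19, and without the first wild-type library it was 0.23. Prdx4, the peroxiredoxin of the secretory pathway, had 6.20 and 7.56 RPM in knockout-labelled and 7.37 and 10.7 RPM in wild-type libraries at 20 weeks. Its 8-week values were 13.9 and 12.3 RPM in knockout-labelled and 6.63 and 9.32 RPM in wild-type libraries. The knockout-labelled libraries were thus above both wild-type libraries at 8 weeks and not at 20 weeks. The interaction of genotype with age and diet was -1.003 ± 0.320 for Prdx4 (limma adjusted p 0.50), the largest of the list, followed in p by Mt1 (0.52 ± 0.35) and Gpx2 (0.40 ± 0.30).

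Acinar markers moved with Prdx4. The summed level of 15 acinar genes, none at 0 in any library, was 9003 and 10631 RPM in knockout-labelled and 10230 and 29174 RPM in wild-type libraries at 20 weeks, against 24463 and 12402 RPM in knockout-labelled and 3029 and 8693 RPM in wild-type libraries at 8 weeks. The 3 libraries with the highest acinar sums were also the 3 with the most Prdx4 at their ages. With the mean of the acinar genes in the fit, the log2 difference of Prdx4 at 8 weeks was 0.17 and its interaction -0.26. For each 1000 RPM of the acinar genes, Prdx4 stood at 0.570 and 0.989 RPM in knockout-labelled and 2.19 and 1.07 RPM in wild-type libraries at 8 weeks, so that this ratio was lower in the knockout-labelled libraries. Markers of other cell types differed between the genotypes at 8 weeks as well. The leukocyte genes Ptprc (-2.04 ± 0.22, limma adjusted p 1.1e-04) and Lyz2 (-1.82 ± 0.31) and the erythroid gene Hba-a2 (-1.41 ± 0.27) were called lower in knockout-labelled islets. They were 2 of 6 tested leukocyte markers and 1 of 4 erythroid markers, against 0.195% called lower over all genes tested. Log2 differences of the 6 leukocyte markers ran from -2.04 to -0.06. The duct gene Krt19 had a difference of 1.53 ± 0.33 that was not called. All 15 acinar genes had higher levels in knockout-labelled islets at 8 weeks, with a median log2 difference of 1.75. Of these, 12 had an unadjusted limma p under 0.05, against 464 of 13347 over all genes tested. Only 1 of the 15 was called, Amy2a5 (2.07 ± 0.41), against 0.0150% called higher over all genes tested. The part of these cell types in the genotype differences was not tested. The acinar term turned the difference of Slc7a11 at 8 weeks to -0.13 and gave 1.23 at 20 weeks (limma adjusted p 0.088).

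On average over both ages, Slc7a11 again had the smallest p, with a log2 difference of 0.75 ± 0.23 (limma adjusted p 0.44), followed by Mt2 (0.38 ± 0.20) and Mt1 (0.30 ± 0.18). Slc7a11 passed the threshold on average without the second wild-type library at 8 weeks (0.97, limma adjusted p 1.7e-04) or without the second knockout-labelled library at 8 weeks (0.99, limma adjusted p 0.0498). At 8 weeks alone it passed without the second wild-type library (1.12, limma adjusted p 0.019). Genes whose groups did not overlap at 20 weeks numbered 5 higher (Mt1, Gpx2, Gpx4, Slc7a11 and Prdx2; all genes, 12.3%) and 2 lower (Txn2 and Keap1; 21.2%). At 8 weeks they numbered 4 higher (Prdx3, Prdx4, Txn1 and Txnip; 7.42%) and 2 lower (Gpx1 and Srxn1; 5.72%).

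Other genes of the same pathways, 68 in 6 lists of which 60 were tested, were read in the same fits. Between the ages 8 were called higher and 4 lower at 20 weeks, against 31.2% higher and 6.05% lower over all genes tested, and none was called in a genotype comparison. Among the genes of zinc handling, 1 was higher and 1 lower of 10. Mtf1, the metal-sensing factor that switches on Mt1 and Mt2, had 29.0 and 29.4 RPM in knockout-labelled and 29.9 and 29.5 RPM in wild-type libraries at 20 weeks, against 14.9 and 21.7 RPM in knockout-labelled and 18.0 and 19.5 RPM in wild-type libraries at 8 weeks. The ages did not overlap, the log2 fold change was 0.65 ± 0.15 (limma adjusted p 0.0027), and the call held under each of the 16 alternatives. The zinc exporter Slc30a1, another target of MTF-1, was not called (0.25 ± 0.16). The beta cell zinc transporter Slc30a8 had 868 to 1142 RPM at 20 weeks and 662 to 986 RPM at 8 weeks.

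Of 9 partners and repressors of NRF2, 2 were higher at 20 weeks and none lower, a share of higher calls below the 31.2% of all genes tested. Bach2, a repressor related to the NRF2 competitor BACH1, had 45.4 to 71.2 RPM at 20 weeks and 7.58 to 22.0 RPM at 8 weeks (log2 fold change 1.84 ± 0.20, limma adjusted p 8.5e-07). Maff, a small MAF partner, had 41.1 to 59.6 RPM at 20 weeks and 16.1 to 27.1 RPM at 8 weeks (1.34 ± 0.18, limma adjusted p 1.4e-05). Both calls held under the 16 alternatives. Among 12 genes of NADPH supply, the malic enzymes Me3 and Me1 were higher and the transaldolase Taldo1 was lower. Me3, the mitochondrial form, had 21.8 to 27.4 RPM at 20 weeks and 3.99 to 10.8 RPM at 8 weeks (1.53 ± 0.19), and Me1, the cytosolic form, had 15.3 to 19.8 RPM at 20 weeks and 6.81 to 13.1 RPM at 8 weeks (0.85 ± 0.17). Taldo1, of the pentose phosphate pathway, had a log2 fold change of -0.56 ± 0.15 and lost its call without the first knockout-labelled library at 20 weeks (-0.47), whereas Me3 and Me1 kept theirs under each alternative.

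The methionine sulfoxide reductase Msra was the single call among 7 glutaredoxins and methionine sulfoxide reductases, against 31.2% called higher over all genes tested. It had 31.7 to 44.1 RPM at 20 weeks and 11.8 to 21.02 RPM at 8 weeks (1.04 ± 0.17, limma adjusted p 1.2e-04), and the call held under the 16 alternatives. Of 15 tested glutathione S-transferases 2 were higher and 1 lower, also a share of higher calls below 31.2%, with a median log2 difference of 0.02. Gstm2, the lower one, had 1.14 to 1.89 RPM at 20 weeks and 1.97 to 2.75 RPM at 8 weeks (-0.44 ± 0.13). Gstm2 lost its call without the first wild-type library at 8 weeks (-0.42), the first knockout-labelled library at 20 weeks (-0.40) or the second wild-type library at 20 weeks (-0.39). The higher Gsto2 (0.44 ± 0.15) lost its call without the first knockout-labelled (0.32) or second wild-type (0.39) library at 8 weeks, and without the second knockout-labelled (0.40) or first wild-type (0.37) library at 20 weeks. It also lost it with scaling to the listed genes (0.17), with no filter (0.44) and in edgeR (0.38). The higher Mgst3 (0.39 ± 0.14) kept its call in 3 of the 8 fits that left out a library and lost it under each other scaling. Without either wild-type library of either age, or without the second knockout-labelled library at 20 weeks, Mgst3 was not called (0.28 to 0.41). Genes of this family are alike in sequence. Of 7 genes of haem and iron handling, 1 was called lower and none higher, against 6.05% lower and 31.2% higher over all genes tested. The lower one, Slc40a1, lost its call under 6 of the 16 alternatives.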

How the data were processed

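Per the labels' protocols, islet RNA was depleted of ribosomal RNA and made into TruSeq libraries. Build mm9, TopHat 1.4.1, FastQC and CASAVA 1.8 are named in the submitters' processing notes. Counter, annotation and strand use were not given in the sources used here. Per library, the authors deposited RPM values, reads scaled by the library total. All values (100%) were whole multiples of 1 read within 0.01 of a read.

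log2(RPM + 1) of the 13347 genes with at least 1 RPM in 2 libraries was fitted with limma 3.58.1 (R 4.3.3; 4 group means, 8 libraries, mean-variance trend), tested first on simulated data. Alternatives were other scalings, a pseudocount of 0.1, no filter, a minimum of 5 RPM, no trend, the compared libraries alone, the acinar mean as covariate, each library left out, and edgeR 4.0.16 on the recovered reads, which called 3842 genes higher and 3988 lower at 20 weeks. Of the 35 genes, those called in a comparison, or the 3 with the smallest p where none was, are given in full. Lengths and overlaps came from GENCODE M21 (GRCm38) by gene ID or symbol. A transcript length is that of the transcript with the longest coding sequence. Replicates were numbered in accession order. The genes and lists were chosen with earlier results of these data known. Some genes of the marker and pathway lists are not reported here.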

Additional observations from a re-analysis of the deposited data

How the results depend on the processing

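The count of 11 called genes between the ages, 6 higher and 5 lower, became 21 with median-of-ratios scaling, 18 with scaling to the listed genes and 20 in edgeR, with the splits given above. It ran from 4 to 16 when 1 library was left out: 16 without the second knockout-labelled library at 8 weeks, 4 without the first wild-type library at 8 weeks, 4 without the first wild-type library at 20 weeks, 6 without the first knockout-labelled library at 20 weeks and 7 without the second wild-type library at 8 weeks. Calls over all genes tested rose or fell with those of the list in each left-out fit named. The cause was not tested. Of the 20 genes not called, 5, 8 and 6 changed sign under the 3 scalings in that order. Between the genotypes the count of 0 became 1 at 20 weeks with the compared libraries alone, and ran from 0 to 1 at 8 weeks and on average when 1 library was left out. That gene was Slc7a11 each time. Its difference at 8 weeks was -0.13 with the acinar mean in the fit. A library left alone in its group was assumed to vary like the other groups. No paired analysis was possible because the sources used here do not say which libraries come from the same litter. With 2 libraries a group, the standard error of a genotype difference within an age was 0.19 to 0.32 on the log2 scale.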
